A study of Mus musculus with 16 samples.

Results

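Chemokines are small secreted proteins that steer leukocytes, and the genes described here are the chemokine ligands and the receptors that bind them. Members were taken by symbol: Ccl, Cxcl, Ccr or Cxcr followed by a digit, together with Cx3cl1, Cx3cr1, Xcl1, Xcr1, Ccrl2 and Ackr1 to Ackr4. Of 64 mouse symbols that met this rule, 42 had a value among the 15350 genes measured in every library, 26 of them ligands and 16 receptors. The 22 others were not analysed here (Ccl1, Ccl17, Ccl19, Ccl19-ps1, Ccl19-ps3, Ccl20, Ccl21b, Ccl26, Ccl27b, Ccr1l1, Ccr3, Ccr4, Ccr6, Ccr8, Ccr9, Cxcl3, Cxcl5, Cxcl15, Cxcl17, Cxcr1, Cxcr5 and Xcl1). Messenger RNA of interscapular brown adipose tissue, the heat-producing fat between the shoulder blades, was sequenced from C57BL/6J mice in 4 groups of 4 libraries. Wild-type (WT) and Ucp1-knockout (KO, Ucp1-/-) mice each carried a minipump for 3 days that delivered either saline or isoproterenol at 60 mg per kg per day. Isoproterenol is an agonist of beta-adrenergic receptors and activates brown fat, and UCP1 is the mitochondrial protein through which that activation makes heat. The sources used here give no age or sex and do not say in which cells the Ucp1 allele acts, nor that each library is its own mouse, so p-values reflect only how far these samples differ, which can be technical.

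Levels are counts per 1e6 reads (CPM). Each CPM includes the prior count of 0.5 reads built into the deposited values. Ucp1 itself was at 2298 to 3449 CPM in WT saline and 8905 to 18458 in WT isoproterenol, and in KO at 409.8 to 1156 under saline and 19.0 to 2129 after isoproterenol, so all 8 KO libraries lay below all 8 WT libraries; whether the reads in KO fall outside the deleted part was not analysed here. Depth ran from 9004515 to 20986735 reads per library. A count of 3 reads, the floor used here, was worth 0.143 to 0.345 CPM. The libraries of the KO isoproterenol group differed most among themselves: summed over 10 brown adipocyte markers they held 3111, 10900, 17633 and 35177 CPM in replicates 1 to 4, against 19110 to 20222 in KO saline, 17323 to 19331 in WT saline and 20499 to 23338 in WT isoproterenol. Brown adipocyte markers were present in every library, and replicate 1 of KO isoproterenol stood lowest.

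Chemokines are sorted into CC, CXC, CX3C and XC ligands by the spacing of cysteines near their amino end. They act on G protein-coupled receptors of leukocytes, and each receptor draws a particular set of cells: CCR2 monocytes, CCR1 monocytes and macrophages, CXCR2 neutrophils, CXCR3 activated T and natural killer cells. Atypical receptors bind chemokines without G protein signalling, and they scavenge or transport them. In adipose tissue, chemokine ligands are made by adipocytes, endothelial cells, fibroblasts and resident macrophages, while most of the receptors sit on leukocytes. In these bulk samples, more cells of a type and more RNA per cell cannot be told apart.

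Many chemokine genes are known targets of NF-kB, a transcription factor of inflammation, so the promoters of the members were searched for its consensus site. RefSeq promoters of build GRCm38.p6, running from 250 bases before to 50 after the start of the gene, were at hand for 31 of the 42 members. The NF-kB consensus, searched on both strands, stood in 7 of those 31 (22.6%) and in 5.14% of all 27025 genes with a promoter of that length, counting a gene once where any of its promoters held the site (4.51% of all 32851 promoters). The 7 were Cxcl1, Cxcl2, Cxcl10, Ccl9, Ccrl2, Ackr2 and Ccl27a. The upstream stretches of 4 members are printed, from ligands that rose in KO after isoproterenol and have the site before their start; capitals mark the motif matches, in reading direction of the gene.
Cxcl1: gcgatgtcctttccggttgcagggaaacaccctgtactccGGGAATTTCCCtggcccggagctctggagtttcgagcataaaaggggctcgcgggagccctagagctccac
Cxcl2: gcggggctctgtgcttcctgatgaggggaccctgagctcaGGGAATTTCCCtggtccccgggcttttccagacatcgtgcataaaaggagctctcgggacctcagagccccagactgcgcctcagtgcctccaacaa
Cxcl10: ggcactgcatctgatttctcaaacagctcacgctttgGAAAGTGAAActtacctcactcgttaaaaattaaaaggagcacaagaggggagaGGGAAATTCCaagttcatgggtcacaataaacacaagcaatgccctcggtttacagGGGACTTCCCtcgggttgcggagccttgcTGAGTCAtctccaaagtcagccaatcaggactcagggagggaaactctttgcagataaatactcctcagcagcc
Ccl9: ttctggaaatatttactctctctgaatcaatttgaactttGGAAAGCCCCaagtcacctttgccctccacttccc
The Cxcl1 stretch is chr5:90891134-90891244 on the plus strand and its match runs from base -71 to base -61 before the start, where matches on both strands overlap. The Cxcl2 stretch is chr5:90903762-90903898 on the plus strand, with overlapping matches from -97 to -87. The neighbours Cxcl1 and Cxcl2 have the same letters at their matches. The Cxcl10 stretch is chr5:92348890-92349139 on the minus strand and holds 4 marked sites, which are an interferon-stimulated response element from -213 to -204, NF-kB matches from -159 to -150 and from -103 to -94, and an AP-1 site (TGAGTCA) from -74 to -68. The Ccl9 stretch is chr11:83578637-83578711 on the minus strand, with its match from -35 to -26. Across the 31 members the interferon element stood in 2 (Cxcl10 and Cxcl14) and in 3.99% of all genes, the AP-1 site in 4 (Cxcl9, Cxcl10, Ccl27a and Ccl28) and in 5.95%, and the cyclic AMP response element TGACGTCA in 0 and in 2.03%. A match is a run of letters, not a measured binding site. Of the 7 members with an NF-kB match, 5 rose in KO after isoproterenol, Ccl27a fell and Ackr2 was not called. Among all 42 members 22 rose there, and among all genes 23.8%. The 42 take in members that had no promoter at hand and were not searched, so they are not a like base for the 7. A part of NF-kB in these changes was not tested.

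After isoproterenol more chemokine genes were called in KO than in WT, as was the case for all genes. A gene was called at a Benjamini-Hochberg adjusted p under 0.05 over all 15350 genes in limma. In KO, 29 of 42 members (69.0%) were called between isoproterenol and saline, against 48.6% of all genes; 22 rose, against 23.8% of all genes, and 7 fell, against 24.8%. The ligands had 15 higher and 3 lower of 26, with a median log2 fold change of 1.58. The receptors had 7 higher and 4 lower of 16, with a median of 0.29, and the median of all genes was -0.0021. In WT, 3 of 42 members (7.14%) were called, against 16.6% of all genes. Those 3, the ligands Cxcl12, Cxcl13 and Ccl6, all rose (7.6% of all genes rose and 8.98% fell), no receptor was called, and 10 members had an unadjusted p under 0.05. The median log2 fold change of the members in WT was 0.11.

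The difference of the 2 responses, KO minus WT, was called for 19 members (45.2%), against 24.7% of all genes. With voom weights on recovered reads it was called for 11 of the 42, against 20.6% of all genes, so its excess over all genes was much smaller in that fit. It was higher in KO for 17 (10.9% of all genes) and lower for 2, Ccl27a and Ccr10 (13.8% of all genes). Between KO and WT under isoproterenol, 27 members (64.3%) were called, against 44.6% of all genes; 23 were higher in KO (21.6% of all genes) and 4 lower (23.1%), namely Ccl27a, Cxcl12, Ccr10 and Ackr4. Under saline, limma called 0 of 42 members between KO and WT, against 0.0977% of all genes, with 4 members at an unadjusted p under 0.05. A limma fit with voom weights on recovered reads also called 0 under saline. The contrasts share libraries, so their values are set side by side here and not compared as independent results. In KO isoproterenol the libraries of 16 members lay above all 12 other libraries, and those of Ccl27a and Ccr10 lay below them. In all, 32 members were called in at least 1 contrast and 10 in none. Each of the 32 reached a mean of 1 CPM in a group. The matching shares of all genes were not counted, so these counts are not read as a trait of the members.

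**Figure D1:**
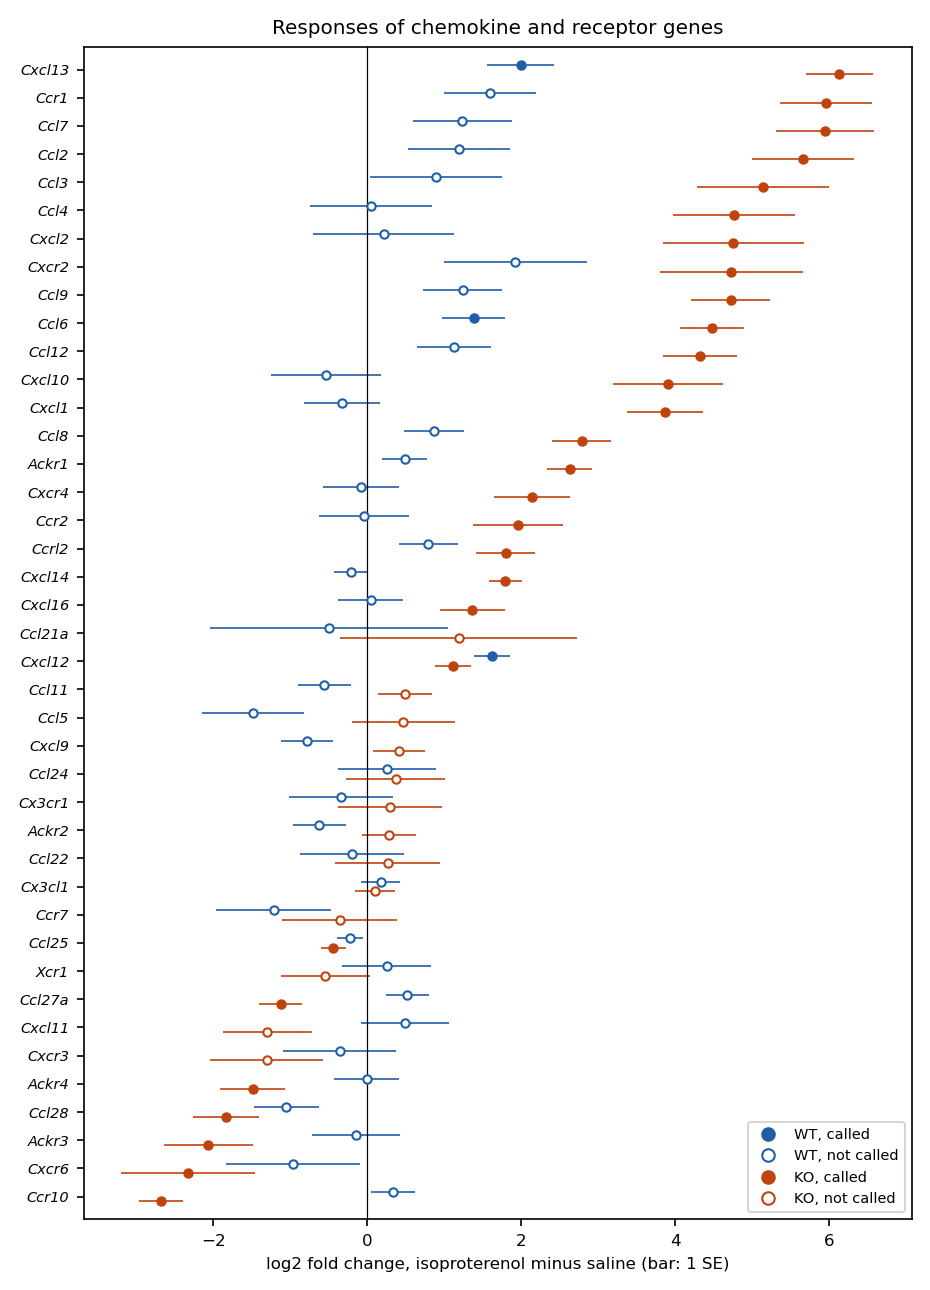
Log2 fold changes between isoproterenol and saline (x axis) for the members (y axis, ordered by the KO value), in WT (blue) and KO (orange), with bars of 1 SE and filled points for called genes. In KO the called members lie mostly to the right of 0 and 7 lie to the left, while in WT only Cxcl13, Cxcl12 and Ccl6 are filled.

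Sums of leukocyte markers moved in the same libraries as the ligands. Over 14 macrophage markers, KO isoproterenol replicates 1 to 4 held 11960, 2910, 6577 and 1424 CPM, while WT saline ran from 299 to 771, KO saline from 398 to 727 and WT isoproterenol from 668 to 1201. Over 6 monocyte markers they held 2080, 463, 570.4 and 134 CPM, against 6.05 to 19.5, 9.33 to 20.8 and 16.2 to 32.4 in those groups, in the same order. Over the 7 neutrophil markers measured they held 457, 142, 186 and 69.6 CPM, against 10.5 to 16.2, 7.12 to 12.2 and 21.3 to 38.5. Replicate 1 was highest and replicate 4 lowest in all 3 sums, as for Ccl2, Ccl7, Ccl12, Ccl3, Ccl4 and Ccr1, whereas Cxcl1 and Cxcl10 were highest in replicate 2 and Cxcl13, Ccl8 and Ackr1 in replicate 3. Every measured marker of these 3 lists had reads in each group. The part of these cells in the chemokine values was not tested.

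**Figure D2:**
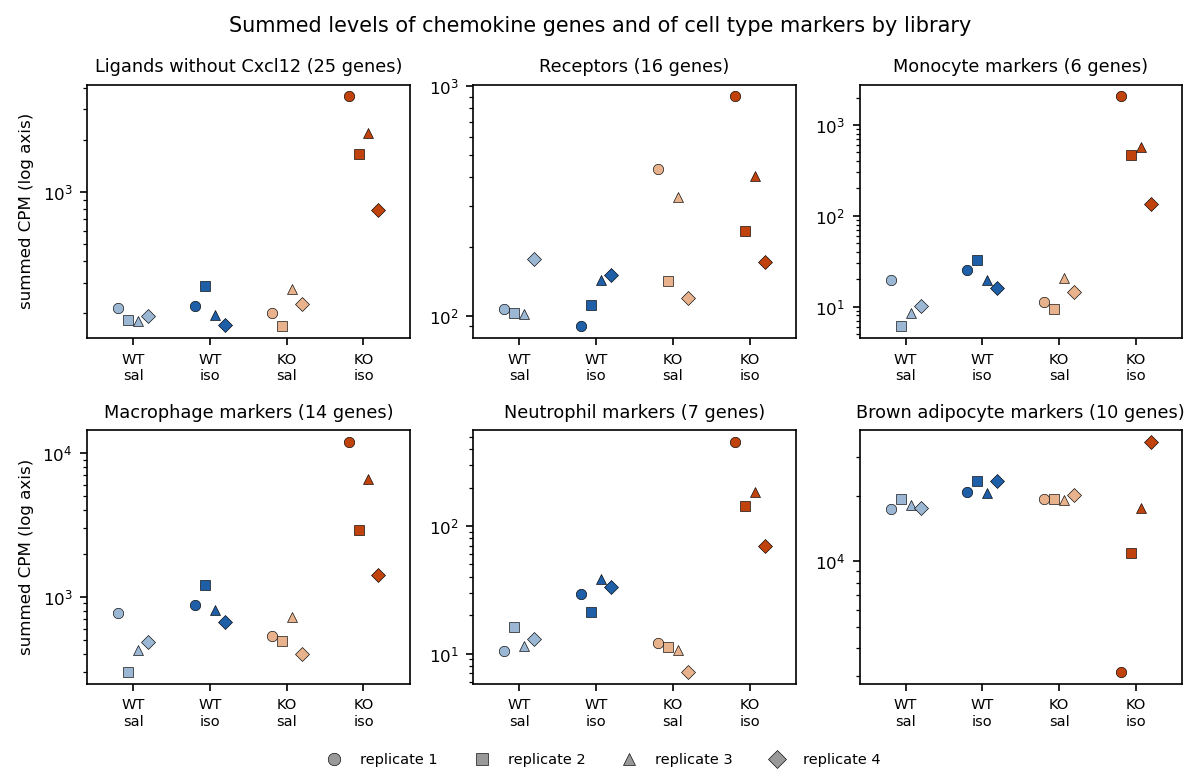
Summed CPM (log y axis) of the 25 ligands other than Cxcl12, the 16 receptors and the markers of 4 cell types, 1 point per library with a symbol for each replicate, for WT and KO under saline (sal) and isoproterenol (iso). In KO isoproterenol the sums of ligands, receptors and monocyte, macrophage and neutrophil markers are highest in replicate 1 and lowest in replicate 4, and brown adipocyte markers are lowest in replicate 1 and highest in replicate 4.

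The attractants of monocytes through CCR2, Ccl2, Ccl7 and Ccl12, all rose in KO after isoproterenol, by 20.1-fold to 61.9-fold. Values per library follow the order of replicates 1 to 4. Ccl2 was at 1.98, 1.40, 1.26 and 1.78 CPM in WT saline and at 3.81, 6.81, 2.10 and 3.12 in WT isoproterenol. In KO, Ccl2 was at 4.78, 1.62, 4.10 and 1.78 under saline and at 645, 151, 119.9 and 32.3 under isoproterenol. The KO isoproterenol libraries stood above the 12 others, with replicate 1 highest and replicate 4 lowest. Ccl7 was at 0.926, 1.04, 1.26 and 1.04 CPM in WT saline and at 3.15, 5.83, 1.35 and 1.58 in WT isoproterenol. In KO, Ccl7 was at 2.02, 1.87, 1.996 and 1.90 under saline and at 550.0, 119, 111 and 28.7 under isoproterenol. Ccl7 lies next to Ccl2 on chromosome 11, and its KO isoproterenol libraries were in the same order. Ccl12 was at 0.397, 0.677, 0.791 and 0.457 CPM in WT saline and at 1.36, 1.51, 1.0004 and 1.09 in WT isoproterenol. In KO, Ccl12 was at 0.673, 0.708, 0.544 and 0.976 under saline and at 45.3, 14.8, 11.7 and 5.29 under isoproterenol. For Ccl7 and Ccl12 too, no library of another group reached the lowest KO isoproterenol library. The log2 fold changes in KO were 5.67 ± 0.66 for Ccl2, 5.95 ± 0.64 for Ccl7 and 4.33 ± 0.48 for Ccl12, with adjusted p of 1.18e-05, 5.6e-06 and 7.32e-06. In WT the libraries of the 2 treatments did not overlap for any of the 3. Log2 fold changes there were 1.19 ± 0.66, 1.24 ± 0.64 and 1.13 ± 0.48, and none was called (adjusted p 0.124 to 0.244). These SE are pooled over all groups, the widely spread KO isoproterenol group included. With the WT libraries fitted alone the SE were 0.34, 0.42 and 0.34. All 3 genes were called in that fit (adjusted p = 0.0203, 0.0444 and 0.0262). It called 32.1% of all genes, against 16.6% in the joint fit, and 12 of the 42 members, so these calls are not particular to the 3 genes. The KO response exceeded the WT response by 4.48 ± 0.94 for Ccl2, 4.71 ± 0.90 for Ccl7 and 3.20 ± 0.68 for Ccl12 (adjusted p 0.00330 to 0.00538), though the Ccl12 difference was not called with voom weights on recovered reads (adjusted p = 0.122).

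**Figure D3:**
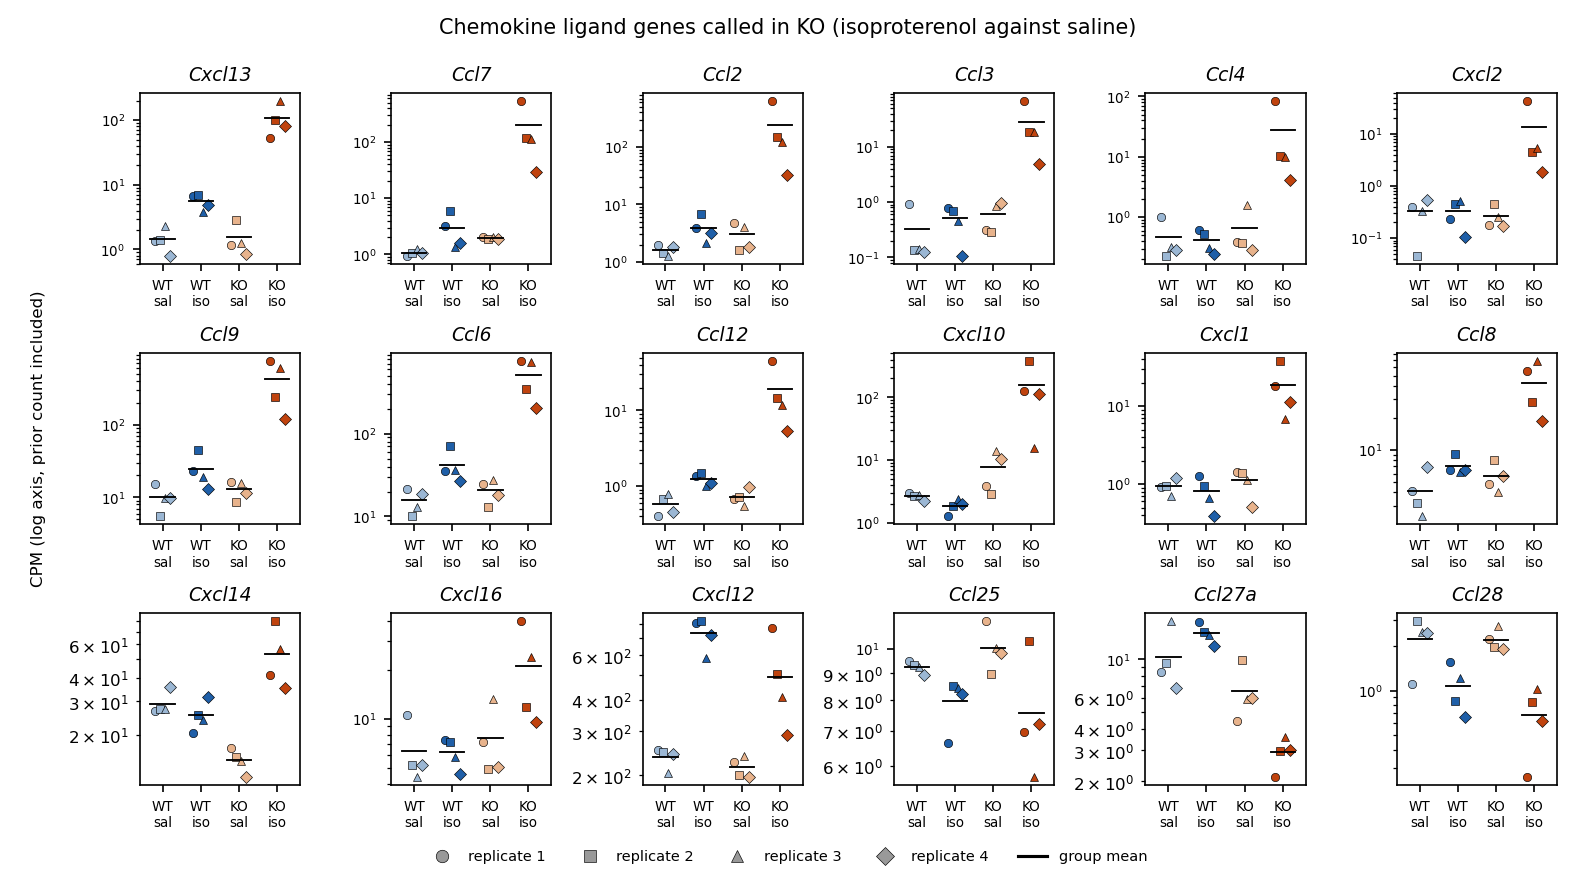
CPM of the 18 ligand genes called in KO, 1 panel per gene and 1 point per library (log y axis, prior count included), for WT and KO under saline (sal) and isoproterenol (iso), with a line at each group mean. From Cxcl13 to Ccl8 all KO isoproterenol points lie above the 12 other libraries, while Ccl27a lies below them.

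Further CC ligands that act on monocytes, macrophages and eosinophils rose as well: 5 of the 8 measured members of the group with Ccl3, Ccl4, Ccl5, Ccl6, Ccl8, Ccl9, Ccl11 and Ccl24 were called higher in KO and none lower. Of all genes 23.8% were called higher there and 24.8% lower. Ccl3 was at 0.926, 0.135, 0.140 and 0.125 CPM in WT saline and at 0.7995, 0.693, 0.448 and 0.105 in WT isoproterenol. In KO, Ccl3 was at 0.319, 0.291, 0.834 and 0.976 under saline and at 69.4, 18.3, 18.8 and 4.94 under isoproterenol. These saline libraries held few reads, 26 in all in KO saline against 2212 in KO isoproterenol. Ccl4 was at 1.01, 0.226, 0.326 and 0.291 CPM in WT saline and at 0.611, 0.530, 0.310 and 0.245 in WT isoproterenol. In KO, Ccl4 was at 0.390, 0.375, 1.56 and 0.287 under saline and at 85.6, 10.3, 9.80 and 4.14 under isoproterenol. Here too KO isoproterenol stood clear of all other libraries and replicate 1 far above the 3 others.

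Ccl6 and Ccl9, mouse ligands of CCR1 made by myeloid cells, had higher levels at baseline. Ccl6 was at 21.7, 9.98, 12.9 and 18.8 CPM in WT saline and at 35.9, 70.3, 36.3 and 26.6 in WT isoproterenol. In KO, Ccl6 was at 24.7, 13.1, 27.3 and 18.1 under saline and at 759, 344, 742 and 205 under isoproterenol. The WT isoproterenol libraries lay above all WT saline libraries, and the KO isoproterenol libraries above both. Ccl9 was at 15.1, 5.46, 9.82 and 9.84 CPM in WT saline and at 23.2, 44.2, 19.0 and 12.8 in WT isoproterenol. In KO, Ccl9 was at 16.2, 8.62, 15.9 and 11.4 under saline and at 748, 237, 591 and 118 under isoproterenol. In WT the Ccl9 libraries of the 2 treatments overlapped. Ccl8 was at 4.10, 3.21, 2.37 and 6.85 CPM in WT saline and at 6.54, 9.09, 6.17 and 6.55 in WT isoproterenol. In KO, Ccl8 was at 4.78, 8.12, 4.03 and 5.69 under saline and at 55.8, 28.3, 68.7 and 18.6 under isoproterenol. Ccl8, a ligand of CCR8 in the mouse, was highest in replicate 3 of KO isoproterenol, unlike the 4 others of this group that rose. Log2 fold changes in KO were 5.14 ± 0.85 for Ccl3, 4.76 ± 0.79 for Ccl4, 4.48 ± 0.41 for Ccl6, 4.73 ± 0.51 for Ccl9 and 2.79 ± 0.39 for Ccl8, with adjusted p from 1.6e-06 to 0.000220.

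In WT, Ccl6 alone of this group was called, with a log2 fold change of 1.38 ± 0.41 (adjusted p = 0.0324). That call was lost with WT replicate numbers as a block (adjusted p = 0.0686), with plain library totals (0.0649), and without WT saline replicate 2 or 3 or WT isoproterenol replicate 1, 2 or 3 (adjusted p 0.0563 to 0.104). The response of Ccl6 differed between genotypes by 3.09 ± 0.58 and that of Ccl9 by 3.48 ± 0.72 (adjusted p = 0.00308 and 0.00490). Differences of 4.25 ± 1.21 for Ccl3, 4.72 ± 1.12 for Ccl4 and 1.91 ± 0.55 for Ccl8 were called (0.0207, 0.00921 and 0.0215) and were not with voom weights, at adjusted p of 0.2003, 0.179 and 0.0681.

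Ccl5 and Ccl11 were not called between isoproterenol and saline in either genotype, but both were higher in KO than in WT under isoproterenol. Ccl5 was at 7.19, 1.22, 3.67 and 1.29 CPM in WT saline and at 0.611, 1.26, 0.862 and 1.02 in WT isoproterenol. In KO, Ccl5 was at 2.66, 1.46, 13.3 and 3.27 under saline and at 9.16, 2.25, 4.52 and 6.64 under isoproterenol. The WT isoproterenol libraries were all below the KO isoproterenol libraries, and the KO saline range took in that of KO isoproterenol. Between genotypes under isoproterenol, Ccl5, an attractant of T cells and monocytes, differed by 2.46 ± 0.67 (adjusted p = 0.00784). KO saline replicate 3, the highest Ccl5 library, also held the highest T cell marker sum of its group, 33.9 CPM over 8 markers against 6.08 to 13.9 in the 3 others. Its sums of natural killer cell, B cell, macrophage and monocyte markers were the highest of that group as well. The part of these cells in the Ccl5 values was not tested. Ccl11 was at 35.0, 26.4, 25.7 and 33.8 CPM in WT saline and at 19.4, 25.1, 19.4 and 18.2 in WT isoproterenol. In KO, Ccl11 was at 29.8, 31.0, 39.7 and 31.3 under saline and at 91.7, 23.8, 77.7 and 26.4 under isoproterenol. Ccl11, the eosinophil attractant of CCR3, split within KO isoproterenol, where replicates 1 and 3 were high and replicates 2 and 4 near the saline libraries. Its difference between genotypes under isoproterenol was 1.18 ± 0.35 (adjusted p = 0.0124), and 0.0740 when only the 8 libraries compared were fitted. Ccl24, a further ligand of CCR3, ran from 0.376 to 3.61 CPM over the 16 libraries and was called in no contrast.

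Cxcl1 and Cxcl2, the measured CXC ligands that draw neutrophils through CXCR2, rose in KO and not in WT. Cxcl1 was at 0.926, 0.948, 0.698 and 1.20 CPM in WT saline and at 1.27, 0.937, 0.655 and 0.385 in WT isoproterenol. In KO, Cxcl1 was at 1.45, 1.37, 1.12 and 0.517 under saline and at 17.9, 38.03, 6.87 and 11.3 under isoproterenol. Replicate 2 was highest here, not replicate 1. Cxcl2 was at 0.397, 0.0451, 0.326 and 0.540 CPM in WT saline and at 0.235, 0.448, 0.517 and 0.105 in WT isoproterenol. In KO, Cxcl2 was at 0.177, 0.458, 0.254 and 0.172 under saline and at 43.9, 4.42, 5.36 and 1.83 under isoproterenol. Cxcl2 was close to the floor in every library outside KO isoproterenol, with 13, 15 and 11 reads in all in WT saline, WT isoproterenol and KO saline against 1131, and replicate 1 held most of the signal. In KO the log2 fold change was 3.87 ± 0.50 for Cxcl1 (adjusted p = 2.68e-05) and 4.76 ± 0.92 for Cxcl2 (adjusted p = 0.000676). The Cxcl2 value depends on how low counts are treated and was 2.69 on the log2(CPM + 1) scale, still called. In WT the values were -0.32 ± 0.50 and 0.22 ± 0.92, neither called. The responses differed by 4.19 ± 0.70 for Cxcl1 and 4.54 ± 1.29 for Cxcl2 (adjusted p = 0.00166 and 0.0210), the latter not called with voom weights (0.187).

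Of the interferon-induced ligands of CXCR3, which draw activated T and natural killer cells, Cxcl10 rose in KO while Cxcl9 and Cxcl11 were not called there. Cxcl10 was at 3.04, 2.66, 2.74 and 2.20 CPM in WT saline and at 1.27, 1.83, 2.38 and 1.996 in WT isoproterenol. In KO, Cxcl10 was at 3.86, 2.87, 14.2 and 10.6 under saline and at 128, 381, 15.4 and 114 under isoproterenol. Replicate 2 was highest and replicate 3 lowest in KO isoproterenol, and even that library was above all libraries of the other groups. The rise in KO was 3.91 ± 0.72 (log2, adjusted p = 0.000475), the WT value -0.54 ± 0.72 (adjusted p = 0.660) and the difference of the responses 4.45 ± 1.02 (adjusted p = 0.00762, and 0.0589 with voom weights). Cxcl9 was at 37.2, 39.5, 38.8 and 25.9 CPM in WT saline and at 25.7, 18.8, 22.6 and 15.4 in WT isoproterenol. In KO, Cxcl9 was at 38.4, 35.8, 67.9 and 74.4 under saline and at 137, 37.96, 75.8 and 56.0 under isoproterenol. All WT isoproterenol libraries lay below all WT saline libraries, a difference of -0.78 ± 0.33 that was not called with all 16 libraries (adjusted p = 0.127). It was called with the 8 WT libraries alone (0.00739), a fit that called 32.1% of all genes. Under isoproterenol Cxcl9 was higher in KO than in WT by 1.76 ± 0.33 (adjusted p = 0.000773), with no overlap. Cxcl11 had at most 1.52 CPM in any library and was called in no contrast, though its value in KO, -1.30 ± 0.58, was called on the log2(CPM + 1) scale, with voom weights and without KO isoproterenol replicate 1 or WT saline replicate 4 (adjusted p 0.0244 to 0.0415). Its annotation here is a polymorphic pseudogene in C57BL/6J, and 41.7% of its exon length overlaps Gm2673 on the opposite strand, so its values are uncertain.

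The other CXC ligands measured, Cxcl12, Cxcl13, Cxcl14 and Cxcl16, all rose in KO. Cxcl13, the B cell attractant, had the largest log2 fold change of the 42 members. Cxcl13 was at 1.37, 1.40, 2.28 and 0.789 CPM in WT saline and at 6.82, 6.97, 3.76 and 4.87 in WT isoproterenol. In KO, Cxcl13 was at 1.17, 2.87, 1.27 and 0.862 under saline and at 53.1, 102, 201 and 82.3 under isoproterenol. Every isoproterenol library stood above every saline library of its genotype, and the lowest KO isoproterenol library was far above the highest WT library. The rise was 1.996 ± 0.43 in WT (adjusted p = 0.00628) and 6.13 ± 0.43 in KO (adjusted p = 1.79e-07), and the difference of 4.14 ± 0.61 was called (adjusted p = 0.000905). Its receptor Cxcr5 was not analysed here.

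Cxcl12, the ligand of CXCR4 made by stromal cells, rose in both genotypes. Cxcl12 was at 252, 248, 203 and 243 CPM in WT saline and at 806, 819, 582 and 725 in WT isoproterenol. In KO, Cxcl12 was at 225, 199.7, 238 and 197 under saline and at 769, 506, 410.3 and 289.5 under isoproterenol. Isoproterenol libraries lay above saline libraries in both genotypes. Log2 fold changes were 1.62 ± 0.23 in WT (adjusted p = 0.000383) and 1.11 ± 0.23 in KO (adjusted p = 0.00122), and the difference of -0.51 ± 0.33 was not called (adjusted p = 0.267), but was without KO isoproterenol replicate 1 (-0.75, adjusted p = 0.0392). Under isoproterenol Cxcl12 was lower in KO than in WT, with a log2 difference of -0.65 ± 0.23 (adjusted p = 0.0334), with overlapping libraries. That call was lost with plain library totals (adjusted p = 0.252), with the 8 libraries alone (0.153) and without KO isoproterenol replicate 3 or 4 or WT isoproterenol replicate 1, 2 or 4 (0.0625 to 0.0877).

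Cxcl14, which brown adipocytes are known to secrete, had the genotypes in opposite order under the 2 treatments. Cxcl14 was at 26.6, 27.2, 27.4 and 35.7 CPM in WT saline and at 20.6, 25.4, 23.9 and 31.6 in WT isoproterenol. In KO, Cxcl14 was at 17.1, 15.4, 14.6 and 12.004 under saline and at 41.4, 79.4, 57.0 and 35.5 under isoproterenol. All 4 KO saline libraries were below all WT saline libraries, with a log2 difference of -0.98 ± 0.22 (adjusted p = 0.1698, not called). That difference was called when only the 8 saline libraries were fitted (0.0274) and without KO isoproterenol replicate 2 (0.0418). Under isoproterenol Cxcl14 was higher in KO than in WT by 1.02 ± 0.22 (adjusted p = 0.00159), again without overlap. Its log2 fold change was 1.79 ± 0.22 in KO (adjusted p = 1.48e-05) and -0.21 ± 0.22 in WT (adjusted p = 0.556), a difference of 2.004 ± 0.30 (adjusted p = 0.000984).

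Cxcl16 was at 10.5, 5.19, 4.42 and 5.19 CPM in WT saline and at 7.38, 7.21, 5.83 and 4.59 in WT isoproterenol. In KO, Cxcl16 was at 7.19, 4.95, 13.3 and 5.11 under saline and at 39.7, 11.8, 24.0 and 9.60 under isoproterenol. Cxcl16, a membrane-bound ligand of CXCR6, was spread widely within KO isoproterenol, and replicates 2 and 4 there lay within the KO saline range. The rise of 1.37 ± 0.43 (adjusted p = 0.0154) was not called with the 8 KO libraries alone (0.0617). The difference of the responses, 1.32 ± 0.60, was not called (adjusted p = 0.119), and was called without KO isoproterenol replicate 4 (1.63, adjusted p = 0.0378). An exon of Zmynd15 on the opposite strand covers 18.3% of Cxcl16, and whether the authors counted by strand is not given in the sources used here.

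Of the 5 CC ligands of lymphoid tissue, skin and mucosa measured, 3 fell in KO and none was called higher (24.8% of all genes fell); Ccl21a, not called, was at 1.19 ± 1.54, and the fall of Ccl25 was lost in most fits that left out 1 library. Ccl27a was at 8.42, 9.53, 16.5 and 6.85 CPM in WT saline and at 16.4, 14.3, 13.8 and 11.9 in WT isoproterenol. In KO, Ccl27a was at 4.43, 9.87, 5.91 and 6.03 under saline and at 2.12, 3.00, 3.58 and 3.03 under isoproterenol. Ccl27a, a skin ligand of CCR10, was lower in every KO isoproterenol library than in any of the 12 others. It fell by 1.12 ± 0.28 in KO (log2, adjusted p = 0.00385) and was 0.52 ± 0.28 in WT (adjusted p = 0.224), and the responses differed by -1.64 ± 0.39 (adjusted p = 0.00950). Ccl27a and Ccl21a have near-identical copies in the mouse genome, so their counts are uncertain. Ccl28 was at 1.10, 2.93, 2.47 and 2.45 CPM in WT saline and at 1.55, 0.856, 1.21 and 0.665 in WT isoproterenol. In KO, Ccl28 was at 2.23, 1.96, 2.72 and 1.90 under saline and at 0.262, 0.834, 1.02 and 0.627 under isoproterenol. Ccl28, a mucosal ligand of CCR10, was low in WT isoproterenol as well, where its libraries overlapped those of WT saline. Its log2 fold change was -1.83 ± 0.42 in KO (adjusted p = 0.00254; -0.94 on the log2(CPM + 1) scale) and -1.05 ± 0.42 in WT (adjusted p = 0.107), with no called difference of the responses (-0.79 ± 0.60, adjusted p = 0.354).

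Ccl25 was at 9.48, 9.35, 9.26 and 8.92 CPM in WT saline and at 6.63, 8.52, 8.45 and 8.23 in WT isoproterenol. In KO, Ccl25 was at 11.3, 8.95, 10.1 and 9.82 under saline and at 6.97, 10.3, 5.72 and 7.19 under isoproterenol. The libraries of Ccl25, a ligand of thymus and gut, overlapped in KO. Its fall of 0.44 ± 0.17 (log2, adjusted p = 0.0417) was lost with plain library totals (0.319) and with the 8 KO libraries (0.146). Of 16 fits without 1 library each, 3 kept it (those without WT isoproterenol replicate 1, KO saline replicate 2 or KO isoproterenol replicate 2). Ccl21a, which guides cells bearing CCR7, ran from 0.105 to 14.2 CPM with low and high libraries in every group, and Ccl22 stayed at or below 1.85 CPM; neither was called in any contrast. Cx3cl1, the tethered ligand of CX3CR1, was even across the groups, from 14.0 to 31.8 CPM, with log2 fold changes of 0.17 ± 0.26 in WT and 0.10 ± 0.26 in KO (adjusted p = 0.696 and 0.768).

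Among the CC receptors, Ccr1 and Ccr2 of monocytes and macrophages rose in KO and Ccr10 fell. Ccr1 was at 1.10, 0.587, 0.605 and 0.540 CPM in WT saline and at 3.34, 4.52, 1.0004 and 1.16 in WT isoproterenol. In KO, Ccr1 was at 0.885, 0.874, 1.12 and 0.402 under saline and at 134, 46.2, 53.5 and 15.97 under isoproterenol. In WT, replicates 1, 2 and 4 of isoproterenol were above all saline libraries and replicate 3 was not; in KO the groups were far apart. The log2 fold change of Ccr1 was 5.96 ± 0.60 in KO (adjusted p = 3.02e-06) and 1.59 ± 0.60 in WT (adjusted p = 0.0824). The difference of the responses, 4.37 ± 0.84, was called (adjusted p = 0.00346), but not with voom weights (0.0600).

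Ccr2 was at 21.3, 9.44, 16.3 and 15.3 CPM in WT saline and at 15.9, 17.1, 16.2 and 10.05 in WT isoproterenol. In KO, Ccr2 was at 15.1, 15.8, 22.2 and 18.2 under saline and at 304, 37.2, 98.8 and 19.7 under isoproterenol. For Ccr2, the receptor of Ccl2, Ccl7 and Ccl12, replicate 4 of KO isoproterenol lay within the KO saline range, and replicate 1 was far above the 3 others. The rise of 1.96 ± 0.58 in KO (adjusted p = 0.0119) was 1.24 without KO isoproterenol replicate 1, still called (adjusted p = 0.0207), and was not called with the 8 KO libraries alone (0.0669). The difference of the Ccr2 responses, 2.003 ± 0.82, was not called (adjusted p = 0.0862), and was called without KO isoproterenol replicate 4 (2.60, adjusted p = 0.00735).

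Ccr10 was at 7.45, 9.07, 9.16 and 11.4 CPM in WT saline and at 10.7, 9.25, 15.4 and 11.9 in WT isoproterenol. In KO, Ccr10 was at 6.62, 13.4, 5.70 and 10.9 under saline and at 1.02, 2.01, 1.49 and 1.08 under isoproterenol. Ccr10, the receptor of Ccl27a and Ccl28, was the receptor with the clearest fall, and no KO isoproterenol library reached the lowest of the 12 others. It fell by 2.67 ± 0.29 in KO (log2, adjusted p = 5.6e-06), was 0.34 ± 0.29 in WT (adjusted p = 0.466), and its responses differed by -3.01 ± 0.41 (adjusted p = 0.000539). Ccr7, of dendritic and T cells, had 0.172 to 3.88 CPM and was called in no contrast.

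**Figure D4:**
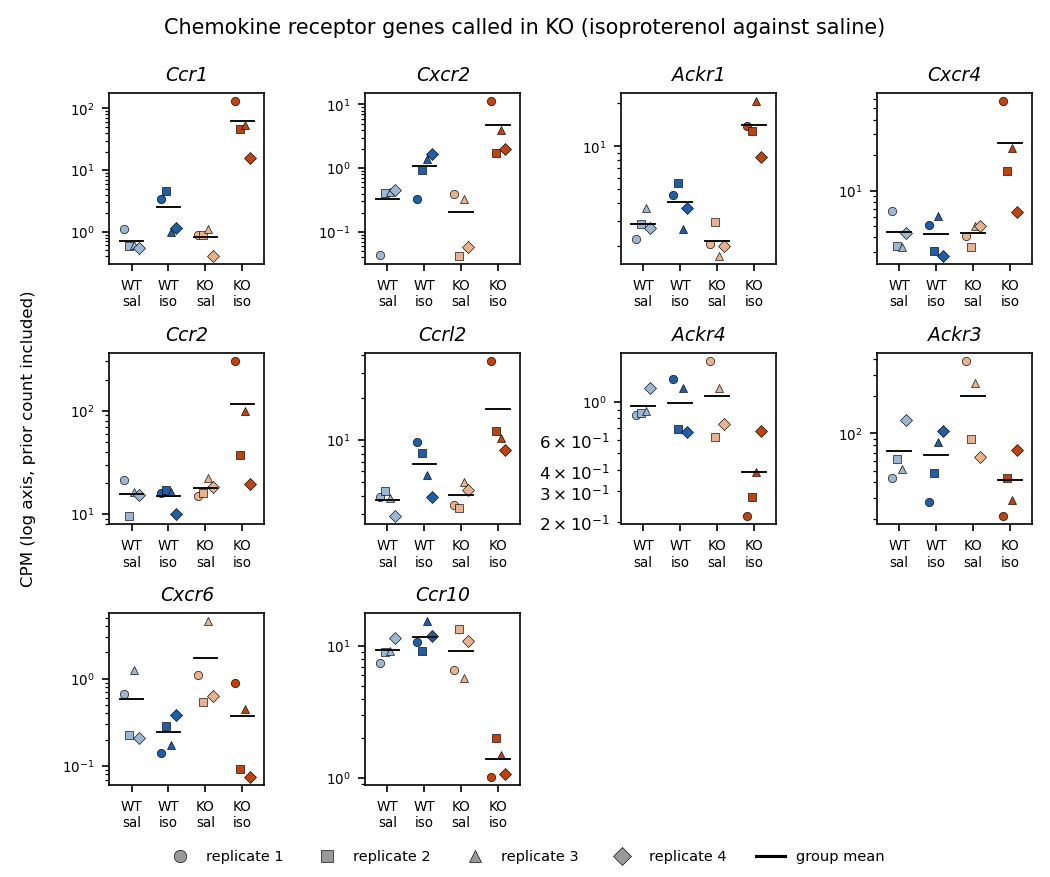
CPM of receptor genes called in KO, 1 panel per gene and 1 point per library (log y axis, prior count included), for WT and KO under saline (sal) and isoproterenol (iso), with a line at each group mean. Ccr1, Cxcr2 and Ackr1 lie above the 12 other libraries in KO isoproterenol and Ccr10 below them, while Ackr3 and Cxcr6 spread widely within KO saline.

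Of the 4 CXC receptors measured, Cxcr2 and Cxcr4 rose in KO and Cxcr6 fell. Cxcr2 was at 0.0441, 0.406, 0.419 and 0.457 CPM in WT saline and at 0.329, 0.937, 1.41 and 1.65 in WT isoproterenol. In KO, Cxcr2 was at 0.390, 0.0416, 0.327 and 0.0574 under saline and at 11.5, 1.70, 3.94 and 1.98 under isoproterenol. Cxcr2, the receptor of neutrophils, rested on few reads outside KO isoproterenol (13 in WT saline, 57 in WT isoproterenol and 9 in KO saline, against 382). WT isoproterenol libraries overlapped WT saline at the lower end, and the lowest KO isoproterenol library was just above the highest WT one. Its log2 fold change was 4.73 ± 0.93 in KO (adjusted p = 0.000763; 1.98 on the log2(CPM + 1) scale) and 1.93 ± 0.93 in WT (adjusted p = 0.174). KO and WT under isoproterenol differed by 1.93 ± 0.93, not called (adjusted p = 0.102), but called on the log2(CPM + 1) scale and with voom weights (0.0146 and 0.0497).

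Cxcr4 was at 6.75, 3.39, 3.30 and 4.36 CPM in WT saline and at 5.13, 3.06, 6.04 and 2.77 in WT isoproterenol. In KO, Cxcr4 was at 4.07, 3.29, 4.97 and 4.997 under saline and at 58.3, 14.5, 23.1 and 6.54 under isoproterenol. The KO isoproterenol libraries of Cxcr4, the signalling receptor of Cxcl12, were above all KO saline libraries, with replicate 4 close to them. The rise of 2.15 ± 0.49 (adjusted p = 0.00243) stood against -0.08 ± 0.49 in WT (adjusted p = 0.935). The difference of 2.23 ± 0.70 was called (adjusted p = 0.0313), but not with WT replicate numbers as a block (0.0554), with voom weights (0.127), or without 1 of these libraries: WT saline replicate 1 or 4, WT isoproterenol replicate 2 or 4, KO saline replicate 1 or 2, or KO isoproterenol replicate 3 (0.0515 to 0.0682).

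Cxcr6 was at 0.661, 0.226, 1.26 and 0.208 CPM in WT saline and at 0.141, 0.285, 0.172 and 0.385 in WT isoproterenol. In KO, Cxcr6 was at 1.10, 0.541, 4.54 and 0.632 under saline and at 0.880, 0.0927, 0.444 and 0.0752 under isoproterenol. Cxcr6, found on T cells, was highest in KO saline replicate 3, and its libraries overlapped. That library had the highest sums of its group for T cell, natural killer cell, B cell, macrophage and monocyte markers. Its fall of 2.32 ± 0.87 (log2, adjusted p = 0.0380) rested on 88 reads in KO saline and 28 in KO isoproterenol. The call was lost with plain library totals (0.0560), on the log2(CPM + 1) scale (0.0628), with the 8 KO libraries (0.0952), and without KO saline replicate 1 or 3 or KO isoproterenol replicate 2 or 4 (0.0650 to 0.133). Cxcr3, the receptor of Cxcl9 and Cxcl10, had 0.154 to 4.24 CPM and a log2 fold change of -1.31 ± 0.73 in KO (adjusted p = 0.155). Without KO isoproterenol replicate 1 that value was -1.97 and called (adjusted p = 0.0239). Cx3cr1, a receptor of monocytes and macrophages, was not called in any contrast, with 16.5, 1.70, 6.87 and 0.827 CPM in KO isoproterenol and 3.93, 3.12, 3.01 and 1.90 in KO saline. Xcr1, of cross-presenting dendritic cells, ran from 0.276 to 2.12 CPM and was not called either.

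The 5 atypical receptors split, with Ackr1 and Ccrl2 higher and Ackr3 and Ackr4 lower in KO. Ackr1 was at 2.25, 2.84, 3.67 and 2.70 CPM in WT saline and at 4.56, 5.50, 2.66 and 3.68 in WT isoproterenol. In KO, Ackr1 was at 2.09, 2.96, 1.71 and 2.01 under saline and at 13.8, 12.8, 20.9 and 8.45 under isoproterenol. Ackr1, which binds many inflammatory chemokines on venules and red cells, was above all other libraries in KO isoproterenol and highest in replicate 3. It rose by 2.63 ± 0.29 (log2, adjusted p = 7.04e-06), against 0.49 ± 0.29 in WT (adjusted p = 0.278), and the difference of 2.14 ± 0.41 was called (adjusted p = 0.00330). Ackr1 shares 25.7% of its exon length with Cadm3 on the same strand, so its counts are uncertain. Ccrl2 was at 3.92, 4.38, 3.86 and 2.86 CPM in WT saline and at 9.64, 8.03, 5.62 and 3.96 in WT isoproterenol. In KO, Ccrl2 was at 3.44, 3.29, 5.04 and 4.42 under saline and at 36.5, 11.5, 10.3 and 8.55 under isoproterenol. Ccrl2, which binds chemerin, was higher in KO isoproterenol than in any KO saline library, and replicate 1 was highest. Its rise was 1.80 ± 0.39 in KO (adjusted p = 0.00147) and 0.79 ± 0.39 in WT (adjusted p = 0.178). The difference between genotypes under isoproterenol, 1.11 ± 0.39 (adjusted p = 0.0292), was not called with the 8 libraries alone (0.109) or without KO isoproterenol replicate 1 or WT isoproterenol replicate 3 or 4 (0.0696 to 0.0994).

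Ackr3 was at 43.1, 62.5, 51.3 and 129 CPM in WT saline and at 27.7, 48.1, 84.6 and 106 in WT isoproterenol. In KO, Ackr3 was at 389, 90.5, 257 and 65.0 under saline and at 21.1, 43.6, 28.7 and 73.2 under isoproterenol. Ackr3, the scavenger of Cxcl12, varied most in KO saline, where replicates 1 and 3 stood above every other library and replicates 2 and 4 within the WT range. The fall in KO, 2.06 ± 0.58 on the log2 scale, was called (adjusted p = 0.00827) with overlapping libraries. The WT value was -0.15 ± 0.58 (adjusted p = 0.896), and the difference of the responses, -1.92 ± 0.81, was not called (adjusted p = 0.0960), but was without KO isoproterenol replicate 4 (-2.24, adjusted p = 0.0448). Ackr4 was at 0.838, 0.858, 0.884 and 1.20 CPM in WT saline and at 1.36, 0.693, 1.21 and 0.665 in WT isoproterenol. In KO, Ackr4 was at 1.74, 0.625, 1.20 and 0.747 under saline and at 0.214, 0.278, 0.392 and 0.677 under isoproterenol. Ackr4, a scavenger of Ccl19, Ccl21 and Ccl25, was near the floor, with 53 reads in KO saline and 28 in KO isoproterenol, and 8.90% of its exon length lies over Acad11 on the opposite strand. It fell by 1.49 ± 0.42 in KO (log2, adjusted p = 0.00913; -0.56 on the log2(CPM + 1) scale), and this was not called with the 8 KO libraries alone (0.0501). Ackr2, a scavenger of inflammatory CC ligands, had 0.611 to 1.7502 CPM and was called in no contrast.

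Set side by side, 19 known pairs of ligand and receptor were compared, all with both genes measured. In KO both genes of 11 pairs were called in the same direction, and in WT of 0, where single members were called at 69.0% in KO and 7.14% in WT, against 48.6% and 16.6% of all genes. Of the 11, 9 were pairs that rose and 2 were pairs that fell, Ccl27a with Ccr10 and Ccl28 with Ccr10. Cxcl12 moved with one of its receptors and against the other: it rose by 1.11 in KO, Cxcr4 by 2.15, and Ackr3 fell by 2.06 ± 0.58 (log2). Cxcl16 and its receptor Cxcr6 also went opposite ways, at 1.37 and -2.32. Cxcl10 rose with no called change in Cxcr3. The pairs share genes and are not independent.

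The members are given next in the order of their genes, with no test of position. Wherever they lie, 69.0% of all 42 members were called in KO. Of these, 22 rose and 7 fell, against 23.8% and 24.8% of all genes. On chromosome 11, 10 CC ligands stand in the order Ccl2, Ccl7, Ccl11, Ccl12, Ccl8, Ccl5, Ccl9, Ccl6, Ccl3 and Ccl4. Of these, 8 were called higher in KO, and the exceptions, Ccl11 and Ccl5, lie inside the row at 0.49 and 0.47 (log2). On chromosome 5, Cxcl1, Cxcl2, Cxcl10 and Cxcl13 rose, while Cxcl9 (0.42) and Cxcl11 (-1.30), on either side of Cxcl10, were not called. On chromosome 9, which holds receptors and no ligand, the neighbours Ccr1 and Ccr2 rose, with Ccrl2, while Cxcr6 and Ackr4 fell. Order is from the GENCODE M21 annotation of GRCm38.

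**Figure D5:**
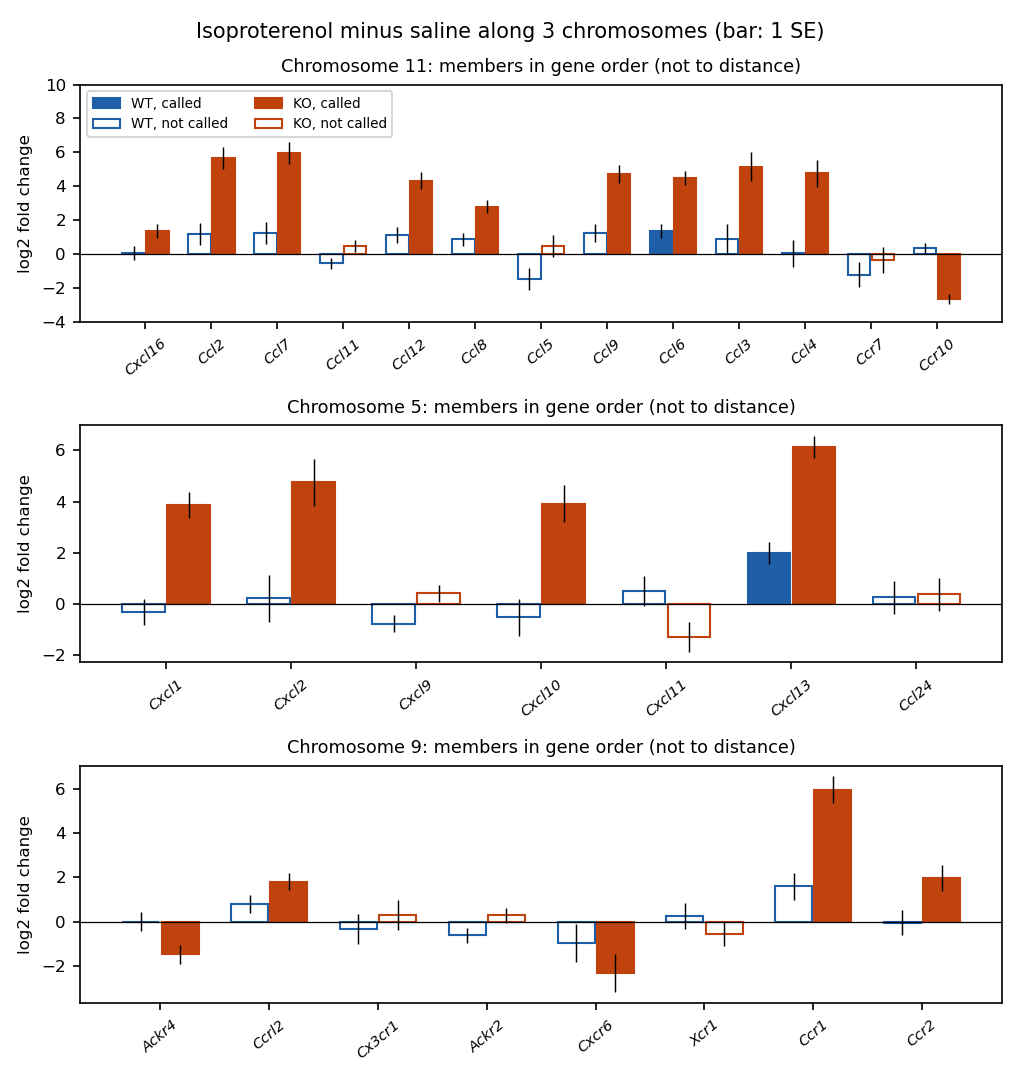
Log2 fold change between isoproterenol and saline (y axis, bars of 1 SE) for members in gene order along chromosomes 11, 5 and 9, in WT (blue) and KO (orange), filled where called; spacing is not to distance. On chromosome 11 the KO bars of the CC ligands are tall except at Ccl11 and Ccl5, and Ccr10 points down.

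The weight of the ligands within the tissue's messenger RNA also shifted. Cxcl12 made up 52.8 to 57.5% of all ligand CPM in WT saline and 46.2 to 54.3% in KO saline. After isoproterenol the share was 74.0 to 80.9% in WT and 15.8 to 26.9% in KO. The 25 other ligands summed to 182 to 214 CPM in WT saline, 168 to 277 in KO saline and 172 to 287 in WT isoproterenol, and to 3576, 1647, 2183 and 788 in replicates 1 to 4 of KO isoproterenol. Those ranges overlapped in the first 3 groups and stood apart in the last. Receptors summed to 102 to 176, 89.9 to 151 and 119 to 437 CPM in WT saline, WT isoproterenol and KO saline, and to 172 to 904 in KO isoproterenol, and the last 2 ranges overlap.

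Per kilobase of exon (GENCODE M21), where levels of genes can be compared, Cxcl12 led the ligands in WT isoproterenol at 89.6 CPM per kb, with Ccl6 at 23.6 and Ccl11 at 19.0. In WT saline Cxcl12 (28.9) and Ccl11 (27.9) were close together, and in KO saline Ccl11 (30.4) was next to Cxcl12 (26.3). In KO isoproterenol the order was Ccl6 at 285 CPM per kb, Ccl7 at 253, Ccl2 at 208 and Ccl9 at 139, with Cxcl12 at 60.4. Given the spread of those libraries, the first 4 of that order overlap. Among the receptors Ackr3 led in WT saline (21.4 CPM per kb), WT isoproterenol (19.9) and KO saline (59.9), and Ccr1 in KO isoproterenol (22.1), followed by Ccr2 (17.0), whose libraries overlap those of Ccr1.

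Leaving out KO isoproterenol replicate 1 lowered the log2 fold change in KO of most members that rose, and raised those of Cxcl13 and Cxcl14. Without it the values were 4.93 for Ccl2, 5.22 for Ccl7, 4.51 for Ccl3, 3.88 for Ccl4, 5.47 for Ccr1 and 6.43 for Cxcl13. Counts in KO were 15 ligands higher and 3 lower and 7 receptors higher and 5 lower in that fit, with Cxcl11 and Cxcr3 called as falls and Ccl25 not called. Of all genes 45.3% were called in KO in the same fit. The WT count was 8 without KO isoproterenol replicate 1 (Ccl12, Ccl28, Ccr1, Ccrl2 and Cxcl9 added), 5 without replicate 4 (Ccl9 and Ccr1 added), and 12 when the 8 WT libraries were fitted alone, so the number called in WT depends on which libraries share the fit. The 12 comprised the 3 named above with Ccl2, Ccl7, Ccl8, Ccl9, Ccl12, Ccr1 and Ccrl2 as higher and Ccl11 and Cxcl9 as lower.

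Genes that act with chemokines were counted from lists chosen by role. Their counts are to be read against all genes, of which 23.8% rose and 24.8% fell in KO and 7.6% rose and 8.98% fell in WT, with median log2 fold changes of -0.0021 and -0.018. Of 40 genes of G protein and kinase signalling below the receptors, 26 rose and 1 fell in KO (median log2 fold change 0.99) and 1 rose in WT. The Src-family kinase Fgr changed by 3.67 ± 0.61. Of 16 arrestins, receptor kinases and RGS proteins, which end receptor signals, 9 rose and 1 fell in KO (median 0.51), and 1 fell in WT, a share below that of all genes, with Rgs1 at 5.31 ± 0.87 and Rgs14 at 2.58 ± 0.59. Of 23 transcription factors and cytokines that induce chemokine genes, 16 rose and none fell in KO (median 1.37) and 1 fell in WT. Irf7, the interferon regulatory factor, was the most changed of them after Il6, at 3.35 ± 0.50, with a mean of 410.4 CPM against 48.5, and Il6 had a mean of 2.32 CPM against 0.167.

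Of 19 adhesion molecules of leukocyte entry, 12 rose and 1 fell in KO (median 1.26), and 2 rose and 1 fell in WT, a share near the 16.6% of all genes called there. The integrin subunit Itgam was at 4.14 ± 0.53, and Madcam1, an addressin of mucosal vessels, at a mean of 3.03 CPM against 0.184. Of 28 other chemoattractants, their receptors and chemokine-cleaving enzymes, 20 rose and 1 fell in KO (median 1.62) and 2 rose in WT. The formyl peptide receptors of neutrophils and monocytes, Fpr1 and Fpr2, were at means of 6.26 and 8.80 CPM, against 0.0812 and 0.162 in KO saline. No gene of these 5 lists was called between KO and WT under saline.

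Among all genes 23.8% rose and 24.8% fell in KO. Of the cell type markers there, 14 of 14 for macrophages and 6 of 6 for monocytes rose, and 5 of 7 for neutrophils rose and 1 fell. Markers of lymphocytes did not rise as a list: 1 of 8 T cell markers fell, 0 of 7 natural killer cell markers were called, and of 7 B cell markers 1 rose and 3 fell. Dendritic cell markers had 1 higher and 1 lower of 7, mast cell and eosinophil markers 1 and 1 of 5, and platelet markers 0 and 1 of 2. Endothelial markers had 3 higher of 7, lymphatic endothelial 2 of 4 and fibroblast 2 of 7, with none lower, on few genes each and, for fibroblasts, near the share of all genes. Mural cell markers had 2 higher and 2 lower of 5, skeletal muscle markers none called of 7, brown adipocyte markers 0 higher and 6 lower of 10, and no mesothelial marker had a value. Itgam stands in both the monocyte and the adhesion list.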

How the data were processed

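Stranded messenger RNA libraries (TruSeq, single reads of 75 bp, per the labels' protocols) were deposited as log2 CPM per gene, 1 file per library. The submitters' processing notes name STAR, limma and the mouse build mm39. The deposited log2 values have the form of limma's voom, with a prior count of 0.5 reads: whole reads came back for 100% of values within 1e-06. CPM were computed as 2 to the power of the deposited value, so they follow the authors' library scaling. Totals of recovered reads set the precision, with 3 reads as the floor. Reads carry no molecular identifiers, so the floor covers counting error only. Gene identifiers were matched to GENCODE M21 symbols (15320 of 15350; 30 had none and 6 shared a symbol).

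The 4 groups, 4 libraries each, were fitted together in limma 3.58.1 (R 4.3.3) on the deposited log2 values, as 4 group means with 12 residual degrees of freedom, a mean-variance trend and robust moderation (statmod 1.5.0). There were 5 contrasts, each with Benjamini-Hochberg adjustment over 15350 genes and a call at an adjusted p under 0.05. Values after ± are 1 SE of this joint fit, pooled over all groups, so they do not measure the spread of a single group. The fit was tested on simulated data with 1 dispersion for all groups, so that test does not cover the unequal spread found here. Pairs of libraries within KO isoproterenol differed by a chi-square per degree of freedom of 92.7 to 628.5, and those within the other groups by 16.7 to 47.6. A count model was not used, since the deposited unit is a log value. Genes named with values in every library are those called in at least 1 contrast with a mean of at least 1 CPM in a group. For each cell type list the text gives counts, and for each pathway list the 2 genes with the largest change in KO. Some genes under that rule are not reported here by name or value; counts over members and lists include them, and the ligand and receptor pairs and the figures of single genes do not. Members, lists and tests were chosen with earlier results of these data known. The alternatives tried were library totals as scaling, a filter at a mean of 1 CPM, log2(CPM + 1), only the libraries compared, no trend, replicate blocks, voom weights and each library left out.

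Labels give the groups the same replicate numbers. Deviations of same-numbered WT libraries from their group means correlated at 0.210, 0.424, 0.234 and 0.536 over genes. Some WT libraries of different number correlated as much, with 0.371 between saline replicate 1 and isoproterenol replicate 2. Saline replicate 4 and isoproterenol replicate 3 were at 0.345. Pairs could therefore not be told from a split of replicates 1 and 2 against 3 and 4. The fit reported has no replicate block, and a block of WT numbers was run as an alternative. In KO the same-numbered values were 0.041, 0.149, 0.239 and 0.033, and the numbers were not taken to pair KO libraries. The headers of 3 KO saline files disagree with the titles on the replicate number; titles were followed. No 2 libraries of a group agreed within sampling noise (lowest chi-square per degree of freedom 16.7).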

Additional observations from a re-analysis of the deposited data

Results flagged for a closer look

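In 11 of 168 groups of 4 libraries, 1 library of a member stood apart from the 3 others by Dixon's test at 95%, and chance flags about 1 in 20 groups. All 11 were in WT. In WT saline the high libraries were replicate 1 for Ccl3 (0.926 CPM) and Ccr1 (1.10 CPM) and replicate 4 for Ackr4 (1.20 CPM) and Cxcl14 (35.7 CPM). The low libraries there were replicate 1 for Cxcr2 (0.0441 CPM), replicate 3 for Ccl21a (0.233 CPM) and replicate 4 for Cxcl9 (25.9 CPM). In WT isoproterenol, Ccl8 was high in replicate 2 (9.09 CPM), while Ccl25 was low in replicate 1 (6.63 CPM) and Ccl21a (0.105 CPM) and Ccr2 (10.05 CPM) in replicate 4. 

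The response to isoproterenol differed between KO and WT by limma's test of the difference for the members that follow. The differences in log2 fold change, KO minus WT, were 4.48 for Ccl2, 4.71 for Ccl7, 3.20 for Ccl12, 4.25 for Ccl3, 4.72 for Ccl4, 3.09 for Ccl6, 3.48 for Ccl9 and 1.91 for Ccl8 among the CC ligands that rose in KO. Among the CXC ligands they were 4.19 for Cxcl1, 4.54 for Cxcl2, 4.45 for Cxcl10, 4.14 for Cxcl13 and 2.004 for Cxcl14. Among the receptors they were 4.37 for Ccr1, 2.23 for Cxcr4 and 2.14 for Ackr1. The negative differences were -1.64 for Ccl27a and -3.01 for Ccr10, a ligand and its receptor.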

How the results depend on the processing

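In KO after isoproterenol the count of members called stayed between 24 and 30 over all settings run (29 in the fit reported), and between KO and WT under isoproterenol between 23 and 28 (27). All genes called in KO ran from 33.7% with the 8 KO libraries alone (24 members) to 54.2% without KO isoproterenol replicate 4 (27 members). Between genotypes they ran from 30.2% with the 8 libraries alone (23 members) to 50.2% without that replicate (26 members). The excess of members over all genes thus varied with the setting. In WT the count of members was 3 (against 16.6% of all genes), and it was 12 with only the 8 libraries compared (32.1%). With the replicate block in both genotypes it was 5 (12.89%), with Ccr1 and Cxcr2 added. Leaving out 1 library gave 2 to 8, the 8 without KO isoproterenol replicate 1 (23.7%), and 5 without replicate 4 (20.95%). Under saline the count was 1 (Cxcl14) with the 8 libraries compared, against 0.326% of all genes. Leaving out 1 library gave 0 to 1, the 1 without KO isoproterenol replicate 2 (against 0.137%). The difference of the responses was called for 11 members with voom weights (20.6% of all genes) against 19 (24.7%), for 21 with the replicate block (22.5%; Cxcl16 and Cxcr2 added), and for 18 to 24 leaving out 1 library, the 24 without KO isoproterenol replicate 4 (36.9%; Ackr3, Ackr4, Ccl11, Ccr2 and Cxcl16 added). The difference was also called without 1 other library for Ccl5, Ccl11, Cxcl9, Cxcl11, Cxcl12 and Cxcr2. The setting with WT numbers alone as the replicate block gave 2 in WT (against 12.15% of all genes) and 18 for the difference (against 17.3%). Beside Ccl6 and Cxcr4, this block of WT numbers changed no other call reported. With the 8 WT libraries alone 4923 genes were called in WT against 2546. The cause of these changes was not tested. No called value changed sign under any setting.

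Plain library totals moved the median log2 fold change of all genes from -0.018 to -0.13 in WT, from -0.0021 to 0.18 in KO, from 0.015 to 0.27 between genotypes under isoproterenol and from 0.044 to 0.34 for the difference. Genes called higher and lower went from 1167 and 1379 to 770 and 1748 in WT, from 3647 and 3813 to 4493 and 2939 in KO, from 3311 and 3542 to 5030 and 2527 between genotypes, and from 1674 and 2113 to 2895 and 1477 for the difference. The voom fit was chosen after seeing the data, in place of edgeR and DESeq2, which were planned and not run because the deposited unit is a log value. Low counts limit Cxcl2, Cxcr2, Cxcr6 and Ackr4. They also limit the fold changes of Ccl3 and Ccl4, which held 13 and 19 reads in all in WT saline and 26 and 32 in KO saline.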

Other observations

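Replicate 3 of KO saline held the highest values of its group for Ccl5, Cxcr6 and the markers of several leukocytes. Its Ccl5 was 13.3 CPM, its Cxcr6 4.54 CPM and its summed T cell markers 33.9 CPM, while its 3 companions held at most 3.27 CPM of Ccl5, 1.10 CPM of Cxcr6 and 13.9 CPM of the markers. It was also highest of its group for natural killer cell markers (12.6 CPM against at most 4.02) and B cell markers (61.3 against at most 39.9). The same held for macrophage markers (727 against at most 535) and monocyte markers (20.8 against at most 14.6), but not for neutrophil or dendritic cell markers. The high sums were thus not particular to T cells. These are values of 1 library and were compared with no test.

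Ackr3 was high in replicates 1 and 3 of KO saline, at 389 and 257 CPM, and the 14 other libraries ran from 21.1 to 129 CPM. Replicate 4 was highest in WT saline, WT isoproterenol and KO isoproterenol, and lowest in KO saline.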
